A study of Mus musculus with 4 samples.

Results

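The 10 genes described here encode the ligands and receptors of 3 signalling systems of blood vessels: VEGF (Vegfa with its receptors Flt1, Kdr and Nrp1), the angiopoietins (Angpt1 and Angpt2 with Tek and the related receptor Tie1) and PDGF-B (Pdgfb with Pdgfrb). They were taken by name from a table of 31557 genes, and all 10 were in it. The cells were nestin-GFP+ cells sorted from the dentate gyrus, the part of the hippocampus that makes neurons in adult life. They came from male mice carrying a nestin-GFP reporter, so all groups shared that transgene, and any share of wells below is a share of GFP-positive sorted cells and not of the tissue. At 2 months of age, 4 mice were infused into a brain ventricle with 2 µl of an antagomir against miR-132, a cholesterol-carrying locked nucleic acid oligonucleotide meant to block that microRNA, at 0.33 nmol/ml, and 4 mice were given a scrambled locked nucleic acid oligonucleotide. Tissue was taken at 3 months, and 96 wells per mouse were read by Smart-seq2, a plate method that counts reads and not molecules. Wells with 500 to 6000 detected genes were kept, which gave 353 wells of antagomir mice and 363 wells of scrambled mice; 36 wells were under that range and 16 over it. The mouse was the replicate in all tests.

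As background, VEGF-A is the main growth factor of blood vessels. Its signal passes mostly through the receptor VEGFR2 (Kdr), while VEGFR1 (Flt1) binds it tightly and largely acts as a decoy, and neuropilin-1 (Nrp1) is a co-receptor. Angiopoietin-1 activates the receptor TIE2 (Tek) on endothelial cells, angiopoietin-2 can antagonise it, and TIE1 modulates TIE2. PDGF-B is released by endothelial cells and recruits pericytes, the mural cells of capillaries, through PDGFRβ (Pdgfrb). In the brain, astrocytes and other cells around the vessel are known sources of VEGF-A, and the stem cells of the dentate gyrus lie next to capillaries.

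Of the 10 genes, an 8-base match to the miR-132-3p seed was found in 1, Kdr, and the sequences are shown because the treatment targets that microRNA. The mature microRNA (chr11:75173723-75173744, plus strand, GRCm38.p6, RefSeq) is given with its seed, bases 2 to 8, in capitals. The site lies at chr5:75933189-75933218 on the minus strand (GRCm38, GENCODE M21), in the 1596-base 3′ UTR of the longest-UTR transcript of Kdr, and its capitals mark the match.
mmu-miR-132-3p: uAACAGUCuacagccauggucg
Kdr 3′ UTR site: ctgggagcaatGACTGTTAaacatgctatg
The match was searched as GACTGTT (7 bases) and as GACTGTTA (8 bases) on the transcript strand only, and the longer one contains the shorter. Another search, for ACTGTTA, whose letters also end the 8-base match, found 1 further copy, in the 3′ UTR of Angpt2. Of 21005 genes with an annotated 3′ UTR, 10.7% held the 7-base match and 2.36% the 8-base match in their longest 3′ UTR, and each was held by 1 of the 10 genes; 10.9% held ACTGTTA, alone or inside the 8-base match, as did 2 of the 10. These counts are too small for a comparison with those shares and describe letters only. The mature microRNA itself was not measured here.

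The kept wells were clustered without the 10 genes or the other pathway genes, and the clusters were named from marker genes that include none of them. The endothelial-like class had 87 wells (41 antagomir, 46 scrambled) in a single cluster, with all 12 endothelial markers in 25% or more of its wells. The mural-like class had 82 wells (41 antagomir, 41 scrambled), with 10 of 12 mural markers at that share. It held a cluster of 74 wells led by Vtn, Rgs5 and Kcnj8 and a cluster of 8 wells from 3 mice led by Acta2 and Myh11. Radial glia-like stem cells and astrocytes were named from 1 shared marker list and were not separated. They form the RGL or astrocyte-like class of 207 wells (112 antagomir, 95 scrambled). Of these, 37 lay in a shallower cluster with a median of 311348 counts. The borders of the class moved with the clustering. At Leiden resolution 0.5 it had 168 wells and the neuroblast or neuron-like class 64. At resolution 2 a cluster of 8 wells was named oligodendrocyte precursor-like. The oligodendrocyte-like class had 303 wells (142 antagomir, 161 scrambled). A neuroblast or neuron-like class of 25 wells and a fibroblast-like class of 12 wells were too small to test. A kept well had a median of 650777 counts; class medians were 565180 in endothelial-like, 530922.5 in mural-like, 563779 in RGL or astrocyte-like and 829515 in oligodendrocyte-like wells. A level below is in CPM, the usual count scaled to the total of all counts, computed from the counts summed over the wells of a class or of a mouse in it, and a well is called positive at 10 counts or more. Reads were not collapsed to molecules. Wilson 95% intervals of shares of wells, and the limits given where no well had a count, pool the wells of all mice. They cover counting error only and leave out the spread between mice. With each well thinned to 200000 counts, leaving out 9 endothelial-like, 8 mural-like, 21 RGL or astrocyte-like and 5 oligodendrocyte-like wells that were shallower, the shares moved little: wells with at least 1 Kdr count were 69.2% in endothelial-like and 11.7% in oligodendrocyte-like wells (70.1% and 12.9% unthinned), and for Pdgfrb 97.3% in mural-like and 31.7% in RGL or astrocyte-like wells (97.6% and 31.4% unthinned).

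Flt1 was the most general of the VEGF receptors in endothelial-like wells. All 87 of 87 wells were positive (Wilson interval 95.8% to 100%), and the level over the 8 mice had a lowest value of 3004, a median of 3719 and a highest value of 5872 CPM. Outside the endothelium Flt1 was positive in 7 of 82 mural-like wells (27.8 CPM) and in none of the 207 RGL or astrocyte-like or 303 oligodendrocyte-like wells. In those glial classes 2.42% and 2.64% of wells had at least 1 Flt1 count, and the source of these counts was not tested.

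Kdr, the main signalling receptor, was positive in 54 of 87 endothelial-like wells (62.1%). Its level over the 8 mice ran from 165.9 CPM through a median of 500.5 to 1012 CPM. The other place where Kdr was read was the oligodendrocyte-like class, with 32 of 303 positive wells (10.6%) and 24.2 CPM. These wells came from 7 of 8 mice and from both oligodendrocyte-like clusters, with 19 positive wells in a cluster of 154 and 13 in a cluster of 149. They held 17.9% of all Kdr counts, and a positive well had a median of 203 CPM. None of the 32 had 3 or more endothelial markers, and the median of their summed endothelial markers was 0 CPM; it was 0 CPM also in the 271 other wells of that class. No RGL or astrocyte-like well had a Kdr count, and 0 of 207 wells allows a share of wells with a count of up to 1.45%, which is not a limit on cells expressing the gene. In mural-like wells Kdr was at 2 counts in all.

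**Figure D1:**
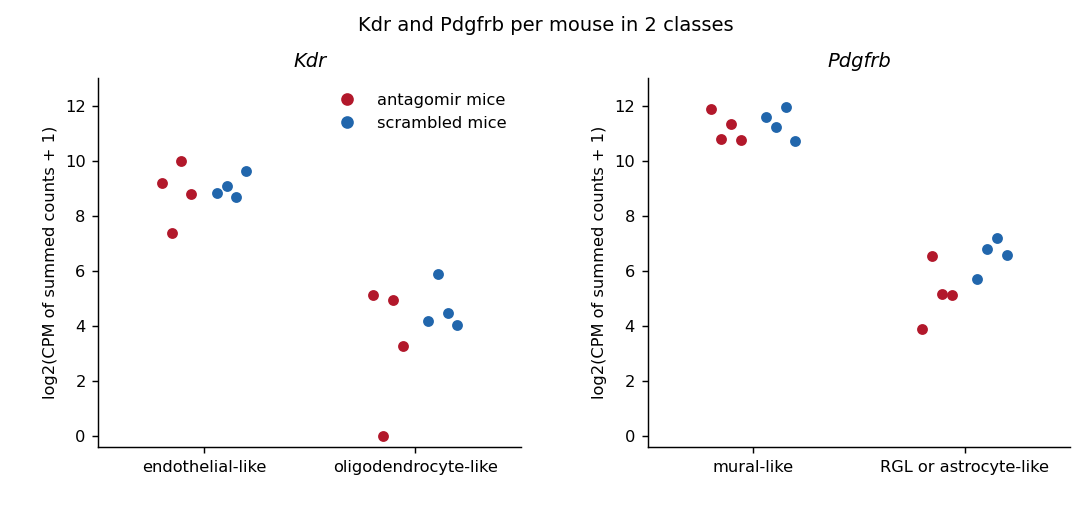
Level of Kdr in endothelial-like and oligodendrocyte-like wells and of Pdgfrb in mural-like and RGL or astrocyte-like wells, as log2(CPM + 1) of the counts summed per mouse; each point is a mouse, antagomir mice left of scrambled mice in each class. The levels of each gene in its vascular class lie above all those in the glial class, and 1 antagomir mouse had no Kdr count in oligodendrocyte-like wells.

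Nrp1, the co-receptor, was spread over more classes. It was positive in 47 of 87 endothelial-like wells (54.0%, 606 CPM), 15 of 82 mural-like wells (18.3%, 128 CPM) and 17 of 207 RGL or astrocyte-like wells (8.21%, 28.4 CPM). In neuroblast or neuron-like wells 13 of 25 were positive (52.0%, 213.9 CPM), a share close to the endothelial-like one, and Nrp1 is also known as a semaphorin receptor of growing axons. None of the 303 oligodendrocyte-like wells was positive. In the 8-well Acta2 and Myh11 cluster 5 wells were positive, against 10 of 74 in the other mural-like cluster.

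Vegfa, the ligand, was low and mostly outside the vessel wall. Of 41 positive wells, 31 were RGL or astrocyte-like, 8 oligodendrocyte-like, 1 endothelial-like and 1 fibroblast-like. All 8 oligodendrocyte-like ones lay in the cluster of 149 wells and none in the cluster of 154. Sequencing pool L6, 1 of 2 pools, gave 77.9% of the wells of the former cluster and 27.9% of the latter. Whether the pool bears on these Vegfa counts was not tested. In the RGL or astrocyte-like class 31 of 207 wells were positive (14.98%), and the level over the 8 mice had a lowest value of 2.97, a median of 15.1 and a highest value of 33.3 CPM. Within that class 23 of the 31 lay in the cluster of 87 wells led by Clu and Gpr37l1, and 2 in the shallow cluster of 37 wells. Mural-like wells had 1 Vegfa count in all.

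Tek and Tie1, the receptors of the angiopoietin axis, were each positive in 59 of 87 endothelial-like wells (67.8%). Tek averaged 541 ± 280 CPM and Tie1 449 ± 257 CPM over the 8 mice (SD, n = 8). Outside the endothelium each was positive in 1 mural-like well and in no glial well. Per kilobase of merged exon, the summed level in endothelial-like wells was 266 CPM per kb for Flt1, 124 for Tek, 109 for Tie1, 61.9 for Nrp1 and 60.1 for Kdr, so that Flt1 stood first on that scale as well.

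Angpt1, which activates TIE2, was positive in 40 kept wells and in none of the endothelial-like ones. It was positive in 27 of 207 RGL or astrocyte-like wells (13.04%), with a lowest value of 4.31, a median of 24.3 and a highest value of 86.4 CPM over the 8 mice. The shallow cluster of 37 wells had the highest summed level of the class's clusters, 91.8 CPM, and all of it came from 1 well. That well was of scrambled mouse 7 and held most of the counts behind the highest value. In mural-like wells 6 of 82 were positive (7.32%, 41.2 CPM), and 4 of 8 mice had any Angpt1 count there. The other positive wells were 5 of 303 oligodendrocyte-like (1.65%, 1.04 CPM) and 2 of 25 neuroblast or neuron-like ones (8%, 14.05 CPM). No endothelial-like well had an Angpt1 count, and 0 of 87 wells allows a share of wells with a count of up to 3.45%, with the same limit. Angpt2, which endothelial cells are known to release in activated vessels, was positive in 3 of 87 endothelial-like wells (29.0 CPM), from scrambled mice 1 and 3. It was positive in 10 of 82 mural-like wells (104 CPM) and in 6 of 12 fibroblast-like wells (256.6 CPM).

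Pdgfb and Pdgfrb were read on opposite sides of the vessel wall. Pdgfb was positive in 19 of 87 endothelial-like wells (21.8%, 105 CPM), with counts in 6 of 8 mice, and otherwise in 1 kept well, a mural-like one. Pdgfrb was positive in 79 of 82 mural-like wells (96.3%), and its level over the 8 mice had a lowest value of 1671, a median of 2471 and a highest value of 3966 CPM. It was positive in 72 of 74 wells of the larger mural-like cluster (2777 CPM) and in 7 of 8 of the Acta2 and Myh11 cluster (1227 CPM). The fibroblast-like class had 11 of 12 positive wells (439 CPM), and the endothelial-like class 2 of 87.

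Pdgfrb was also read in RGL or astrocyte-like wells. There 57 of 207 wells were positive (27.5%), from all 8 mice, and the level ran from 13.9 CPM through a median of 71.6 to 146.9 CPM. The wells came from 4 clusters, with in turn 33 of 87, 8 of 39, 15 of 44 and 1 of 37 wells positive. None of the 57 had 3 or more mural markers at 10 counts or more. The median of their summed mural markers was 2.31 CPM, against 0.491 CPM in the 150 other wells of the class. In oligodendrocyte-like wells, the deepest class, none was positive and 2.31% had a count.

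**Figure D2:**
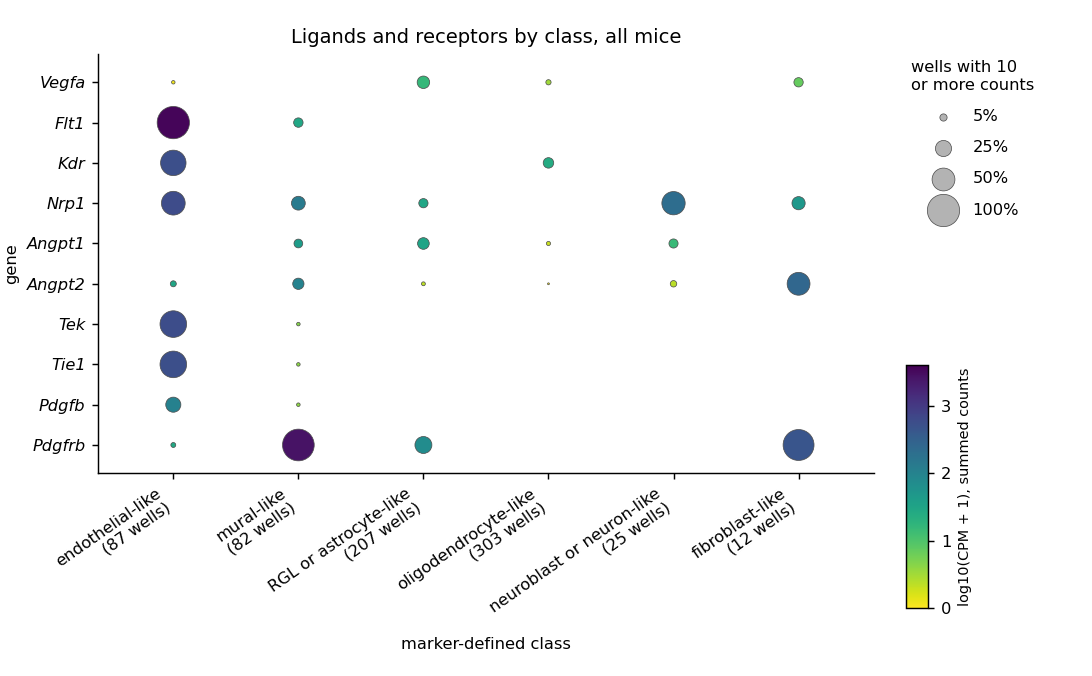
Share of wells positive at 10 counts or more (dot size) and level as log10(CPM + 1) of summed counts (colour) for the 10 genes in 6 marker-defined classes, all 8 mice together. Flt1, Kdr, Tek, Tie1 and Pdgfb have their largest dots in the endothelial-like column and Pdgfrb in the mural-like column, while Vegfa and Angpt1 have theirs in the RGL or astrocyte-like column.

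The endothelial receptors were read together in many single wells. Of the 87 endothelial-like wells, 31 were positive for all 4 of Flt1, Kdr, Tek and Tie1, 29 for 3, 21 for 2 and 6 for 1. The median depth of these wells was 602729, 744379, 509387 and 375916 counts in the same order, so the wells with 1 receptor were also the shallowest. Tek and Tie1 were positive together in 45 wells, and Kdr and Nrp1 in 37. Ligands and their receptors were seldom in the same well. No endothelial-like well was positive for both Pdgfb and Pdgfrb. Vegfa was positive beside Flt1 and Kdr in 1 endothelial-like well, and Angpt2 beside Tek in 1. Among RGL or astrocyte-like wells, 12 were positive for Vegfa and Pdgfrb, 7 for Angpt1 and Pdgfrb, and 3 for Vegfa and Angpt1. In mural-like wells 3 were positive for both Angpt1 and Angpt2.

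The promoters of Flt1, Kdr, Tek and Tie1 are shown because these 4 receptors were the ones called higher in endothelial-like than in mural-like wells in the tests given next. Each runs from 250 bases before to 50 after the start (RefSeq, GRCm38.p6), 5′ to 3′ on the strand of the gene, at chr5:147725962-147726261 (Flt1, minus), chr5:75978406-75978705 (Kdr, minus), chr4:94739039-94739338 (Tek, plus) and chr4:118489800-118490099 (Tie1, minus). Capitals mark GGAA and its reverse complement TTCC, copies that overlap included, the core of the sites bound by ETS factors, a family with known roles in endothelial genes.
Flt1 promoter: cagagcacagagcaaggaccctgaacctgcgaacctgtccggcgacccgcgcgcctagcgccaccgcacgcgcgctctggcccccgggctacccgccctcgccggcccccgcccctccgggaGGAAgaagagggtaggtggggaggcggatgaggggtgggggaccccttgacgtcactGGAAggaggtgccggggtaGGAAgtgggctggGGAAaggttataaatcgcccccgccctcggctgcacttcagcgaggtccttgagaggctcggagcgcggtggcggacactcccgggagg
Kdr promoter: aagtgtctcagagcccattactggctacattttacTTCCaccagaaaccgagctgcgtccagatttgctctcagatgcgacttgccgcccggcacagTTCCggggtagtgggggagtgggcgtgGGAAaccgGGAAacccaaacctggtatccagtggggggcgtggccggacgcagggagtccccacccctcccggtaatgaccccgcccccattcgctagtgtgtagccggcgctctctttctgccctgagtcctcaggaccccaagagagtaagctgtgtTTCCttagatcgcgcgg
Tek promoter: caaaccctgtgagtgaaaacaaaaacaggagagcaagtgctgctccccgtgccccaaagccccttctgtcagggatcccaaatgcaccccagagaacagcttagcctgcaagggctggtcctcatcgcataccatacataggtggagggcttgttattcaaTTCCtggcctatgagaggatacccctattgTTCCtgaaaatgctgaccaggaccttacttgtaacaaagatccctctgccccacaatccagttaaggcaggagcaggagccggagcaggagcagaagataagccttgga
Tie1 promoter: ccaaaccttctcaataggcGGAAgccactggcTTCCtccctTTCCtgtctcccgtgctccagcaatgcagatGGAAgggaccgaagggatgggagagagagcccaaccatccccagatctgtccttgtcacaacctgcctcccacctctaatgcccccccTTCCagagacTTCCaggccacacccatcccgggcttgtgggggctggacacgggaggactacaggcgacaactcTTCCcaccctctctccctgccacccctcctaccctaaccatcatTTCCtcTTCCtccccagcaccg
The 4 letters occur 4 times in the window of Flt1, 5 times in that of Kdr, 2 times in that of Tek and 9 times in that of Tie1. Such short letters are common: 96.0% of 32851 promoters of that length held at least 1 copy, with a median of 3. At least as many copies as in Flt1 were held by 46.3% of promoters, as in Kdr by 28.6%, as in Tek by 84.6% and as in Tie1 by 1.59%. Of the members not shown, Nrp1 had 5 copies, and Vegfa had 6 in 1 window and 3 in another. A second search, for GGGCGG on both strands, found 3 copies in Flt1, 2 in Kdr and none in Tek or Tie1, with at least 1 in 35.7% of promoters. These counts describe letters and not binding.

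Levels were compared between classes with edgeR's quasi-likelihood test on counts summed per class and mouse, with the mouse as a block and adjustment over 12095 genes. Pdgfb did not pass the filter on low counts there and was not tested, so 9 of the 10 genes were. Without that filter all 10 were tested, and 5 were called higher in endothelial-like than in mural-like wells, as were 685 of 30407 genes. The filter keeps a gene that is high in 1 class, so the counts of members below are a description beside the share of all genes. Differences of about 8 or more on the log2 scale are set against classes near 0, and their size depends on the small count added in the fit, so levels and adjusted p-values are given for these in place of folds.

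Between endothelial-like and mural-like wells, 4 of 9 genes were higher in endothelial-like wells (Flt1, Kdr, Tek, Tie1), where 4.96% of all genes tested were, and 2 were lower (Angpt1 and Pdgfrb), where 6.32% were. Flt1 was at 3587 CPM in endothelial-like and 27.8 CPM in mural-like wells, a log2 difference of 7.51 ± 1.196 (SE, adjusted p = 5.21e-05). Adjusted p was 2.55e-07 for Kdr, 2.49e-05 for Tek, 3.61e-05 for Tie1 and 0.000148 for Pdgfrb. For Angpt1 it was 0.0116, and without antagomir mouse 4, which held most mural-like Angpt1 counts, it was 0.0576. Nrp1 was 2.92 ± 1.04 higher on the log2 scale in endothelial-like wells, with an adjusted p of 0.0720 that did not pass the threshold of 0.05; without antagomir mouse 6 it was 0.0489. Angpt2 did not pass either (adjusted p = 0.218, and 0.0180 without scrambled mouse 3, 1 of the 2 mice with endothelial-like Angpt2 counts).

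Between endothelial-like and RGL or astrocyte-like wells, 5 of 9 genes were higher, against 4.7% of all genes tested, and 3 were lower, against 24.4%. The 3 lower ones were Vegfa (0.226 CPM in endothelial-like and 14.9 CPM in RGL or astrocyte-like wells, adjusted p = 0.000211), Angpt1 (adjusted p = 0.00201) and Pdgfrb (26.4 and 72.8 CPM, adjusted p = 0.0164). The call for Pdgfrb was lost without scrambled mouse 3 (adjusted p = 0.0551), antagomir mouse 4 (0.0795), scrambled mouse 7 (0.0813) or antagomir mouse 8 (0.0710). Nrp1 was among the 5 higher ones, with a log2 difference of 4.37 ± 1.11 (adjusted p = 0.00356). The median log2 difference of all genes tested was -1.88 here, with endothelial-like wells having fewer detected genes (2003 against 2800 per well), so a called lower value is read against that shift.

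Between endothelial-like and oligodendrocyte-like wells, 6 of 9 genes were higher, against 7.43% of all genes, and 2 were lower, against 22.1%. Kdr differed by 4.42 ± 0.87 on the log2 scale (543 CPM in endothelial-like and 24.2 CPM in oligodendrocyte-like wells, adjusted p = 0.000564). The call of Pdgfrb as higher in endothelial-like wells (adjusted p = 0.0224) rested on 2 positive wells. It was lost without scrambled mouse 1 (0.185) or scrambled mouse 5 (0.211). In these 2 wells the median of summed mural markers was 19097 CPM, against 0 CPM in the 85 other wells of the class. Of the 2 wells, 1 had 3 or more mural markers at 10 counts or more. The source of their Pdgfrb counts was not tested. The lower ones were Vegfa (adjusted p = 0.0358) and Angpt1 (adjusted p = 0.0493), and neither call was stable. That of Vegfa was lost in 5 of the 8 fits that left out a mouse (scrambled mice 3 and 7, antagomir mice 4, 6 and 8; up to 0.129) and without the filter on low counts (0.235). That of Angpt1 was lost in 7 of these 8, each mouse in turn except scrambled mouse 1 (up to 0.0997), and with RLE scaling (0.0580). Between mural-like and RGL or astrocyte-like wells, 3 of 9 genes were higher, against 4.16% of all genes, and 1 was lower, against 19%. Pdgfrb was higher by 4.62 ± 1.24 (2656 CPM in mural-like and 72.8 CPM in RGL or astrocyte-like wells, adjusted p = 0.00630), and Vegfa was the lower one (adjusted p = 6.19e-05). The other 2 higher calls were Flt1 (adjusted p = 2.22e-05) and Tie1 (adjusted p = 0.0461), and that of Tie1 rested on 1 positive mural-like well of scrambled mouse 3 and was lost in 8 of the 8 fits that left out a mouse (adjusted p 0.0547 to 1.00). Angpt2 did not pass (adjusted p = 0.0958, and 0.0198 without antagomir mouse 2), nor did Tek (adjusted p = 0.224, and 0.0480 without scrambled mouse 7). Between mural-like and oligodendrocyte-like wells 7 of 9 genes were called, against 25.6% of all genes; 5 were higher, against 7.17%, and 2 were lower, against 18.5%; the lower ones were Kdr (adjusted p = 4.39e-06) and Vegfa (adjusted p = 0.00472, and 0.0534 without the filter on low counts). Of the higher ones, Tek (adjusted p = 0.0112) was lost without scrambled mouse 5 (0.212).

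Between RGL or astrocyte-like and oligodendrocyte-like wells, 3 of 9 genes were higher (Vegfa, Nrp1 and Pdgfrb), against 9.82% of all genes, and Kdr was lower, against 5.41%. Adjusted p was 6.11e-06 for Nrp1, 1.95e-05 for Pdgfrb and 1.61e-06 for Kdr. Vegfa was at 14.9 CPM in RGL or astrocyte-like and 2.22 CPM in oligodendrocyte-like wells, where the positive wells came from 4 of 8 mice. Its fitted difference, larger than these summed levels give, was 4.35 ± 1.43 on the log2 scale (adjusted p = 0.0352). That call did not hold in 7 of the 8 fits that left out a mouse, each mouse in turn except antagomir mouse 4 (adjusted p 0.0511 to 0.143), although the difference stayed between 3.53 and 5.10. Angpt1, at 30.4 and 1.04 CPM, did not pass (adjusted p = 0.176).

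The other genes of these pathways were taken from 8 lists of 61 genes found in the table. In the contrast of endothelial-like with mural-like wells, 4.96% of all genes tested were higher and 6.32% lower, and the list counts are read beside these shares. There 6 of 9 tested response genes of VEGF or TIE2 signalling were higher and none lower, with a median log2 difference of 5.23 beside -0.25 over all genes. Among them were Dll4, the Notch ligand of tip cells (332.8 CPM in endothelial-like and 0.0232 CPM in mural-like wells), and Klf2, a transcription factor induced by blood flow (380.5 CPM in endothelial-like and 5.61 CPM in mural-like wells). Ptprb, the phosphatase VE-PTP that restrains TIE2, was positive in 73 of 87 endothelial-like wells (83.9%) and in none of 82 mural-like wells (adjusted p = 4.51e-10). Flt4, the receptor of VEGF-C and VEGF-D, was positive in 43 of 87 and in none of 82 (adjusted p = 7.70e-07). The sphingosine-1-phosphate receptor S1pr1 was also higher (adjusted p = 4.51e-10), and so was the glucose transporter Slc2a1, at 5944 and 54.4 CPM. Of the other lists, 2 of 4 tested VEGF genes, 2 of 9 hypoxia-inducible genes and 4 of 10 endothelial-mural pairs were higher, and 2 of those pairs were lower. None of 7 oxygen-sensing genes passed.

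Against RGL or astrocyte-like wells, 6 of 9 response genes were higher in endothelial-like wells, beside 4.7% of all genes, and 1 was lower, beside 24.4%. The lower one was Apln, apelin, which endothelial tip cells are known to make: it had no count in endothelial-like wells and 85.3 CPM in RGL or astrocyte-like wells (adjusted p = 1.94e-05). In oligodendrocyte-like wells Apln was at 69.4 CPM. Epas1, the hypoxia-inducible factor HIF-2α, was higher in endothelial-like wells (1587 CPM in endothelial-like and 112 CPM in RGL or astrocyte-like wells, 3.34 ± 0.52 on the log2 scale, adjusted p = 1.77e-05). In mural-like wells, 3 of 4 tested PDGF genes were lower than in RGL or astrocyte-like wells, beside 19% of all genes, and none higher, beside 4.16%. The median log2 difference of all genes was -1.42 in that contrast, with 1978 against 2800 detected genes per well, so lower calls are read against that shift. Pdgfd, a second ligand of PDGFRβ, had no count in mural-like wells and 26.7 CPM in RGL or astrocyte-like wells (adjusted p = 0.000374), and at 89.8 CPM in endothelial-like wells. Vegfb was lower in mural-like wells too (no count in mural-like and 35.9 CPM in RGL or astrocyte-like wells, adjusted p = 8.77e-05). The TGF-β co-receptor Eng was higher in mural-like wells (701.5 CPM in mural-like and 0.0597 CPM in RGL or astrocyte-like wells, adjusted p = 9.16e-12).

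The genes most like a member in level were found over 32 sums, 4 classes in 8 mice, among 12340 genes, as a description of points that share mice, libraries and classes. For Tek they were Slco1a4 (Pearson r = 0.985) and Icam2 (0.971), for Flt1 Nostrin (0.967) and Slco1a4 (0.954), and for Pdgfrb Arhgap42 (0.967) and Nbl1 (0.957). For Kdr they were Sema7a (0.957) and Sdpr (0.956). Vegfa was nearest to Fut9 (0.921) and Scrg1 (0.908). For Angpt2 the nearest, Pcdh19, was at 0.674. For Tie1 they were Gm45552 (0.968) and Slc39a8 (0.968), for Nrp1 Clic1 (0.841) and Tsc22d1 (0.839), and for Pdgfb, which is below the filter, Kif26a (0.977).

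The treatment question was whether any of these genes differed in level after the antagomir. In all kept wells none of the 10 genes passed, where 0% of 15447 genes tested passed by edgeR and 1.81% had an unadjusted p under 0.05. By DESeq2, 10 genes and none of the 10 members passed. Within classes edgeR also called 0 genes: 0% of 6448 in endothelial-like, 6788 in mural-like, 11566 in RGL or astrocyte-like and 10781 in oligodendrocyte-like wells, with 0.496%, 0.899%, 1.57% and 1.94% of genes at an unadjusted p under 0.05. No member was among these. No member had antagomir and scrambled mice that did not overlap in any of these classes or over all kept wells, where this held for 1.1% of genes with a count in endothelial-like, 1.14% in mural-like, 1.27% in RGL or astrocyte-like and 1.25% in oligodendrocyte-like wells. DESeq2 called 11, 22, 8 and 13 genes in these classes, none of them a member. In sums over all wells, fewer cells of a type and less RNA per cell cannot be told apart. The number of endothelial-like wells was 17, 5, 11 and 8 in antagomir mice 2, 4, 6 and 8, and 19, 13, 11 and 3 in scrambled mice 1, 3, 5 and 7. Flt1 in all kept wells was 533, 257, 509 and 256.5 CPM in the same antagomir mice and 645, 341, 311 and 163 CPM in the same scrambled mice. In each treatment the mouse with the most endothelial-like wells had the highest Flt1, so the values within the class are given next.

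**Figure D3:**
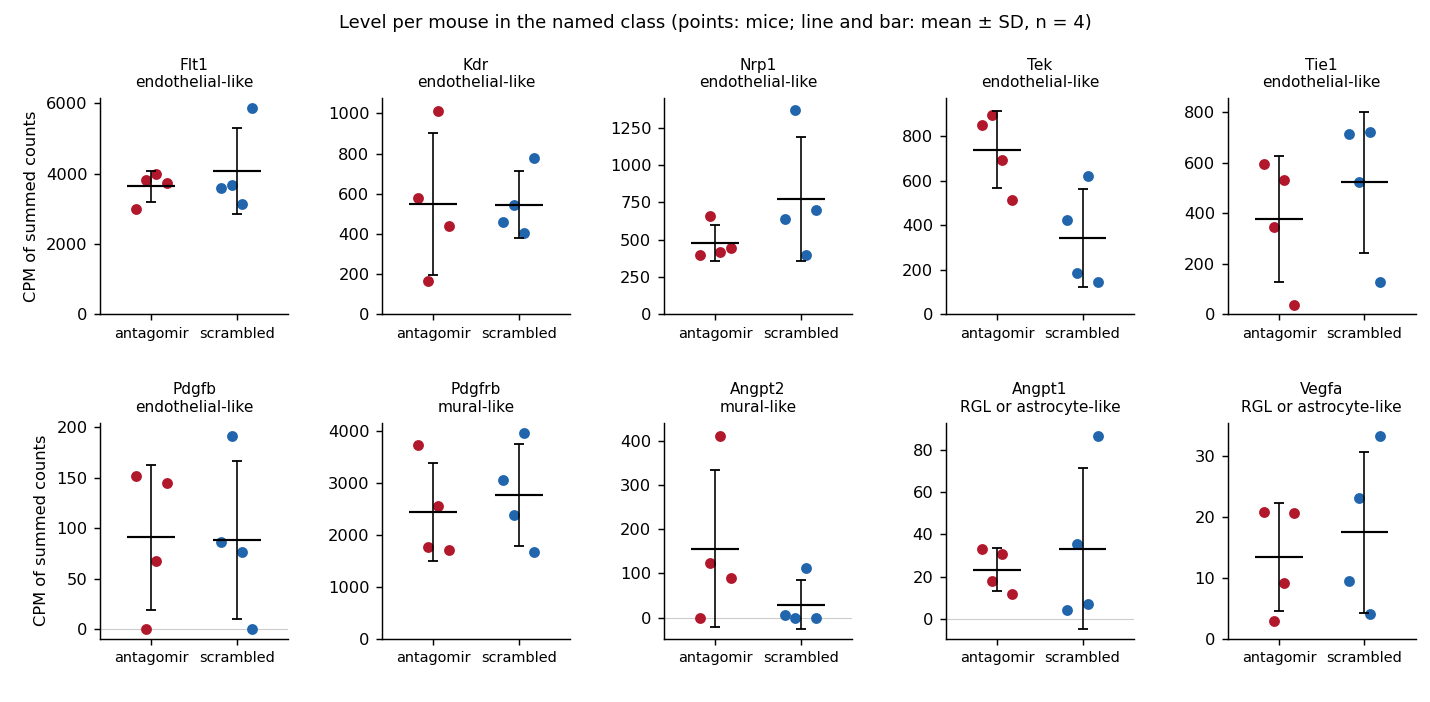
Level per mouse, in CPM of the counts summed over the wells of the named class, for each of the 10 genes; points are mice, antagomir left and scrambled right, the line is the mean and the bar the SD (4 mice each). The antagomir and scrambled points overlap in all 10 panels, and 3 of the 4 antagomir points of Tek lie above all its scrambled points.

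Within endothelial-like wells Flt1 was at 3004, 3820, 3990 and 3751 CPM in antagomir mice, against 3605, 3688, 3133 and 5872 CPM in scrambled mice. The groups overlapped, and the log2 difference was -0.08 ± 0.25 (SE), with a 95% interval from -0.62 to 0.46. Kdr was at 578, 165.9, 1012 and 439 CPM in antagomir mice and 458, 543, 406 and 779.6 CPM in scrambled mice. Both the highest and the lowest value were in antagomir mice, and the difference was 0.13 (interval -1.16 to 1.42). That interval allows a rise or a fall, and whether the 8-base match bears on the level of Kdr was not tested.

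Tek had the largest difference among the endothelial receptors. It was at 852, 895, 696 and 513 CPM in antagomir mice and 422, 184, 621 and 146 CPM in scrambled mice. Only the lowest antagomir value lay below a scrambled value, that of mouse 5. The log2 difference was 1.05 ± 0.63, with an interval from -0.31 to 2.40 (edgeR, unadjusted p = 0.119, adjusted p = 1.00). The 2 lowest scrambled values came from mice with 13 and 3 endothelial-like wells. Tie1, at 594, 345.5, 530 and 36.6 CPM in antagomir mice and 713, 523, 722 and 127 CPM in scrambled mice, differed by -0.53 (interval -2.30 to 1.25). Each combination of sort day and pool held 1 mouse of each treatment, and within these combinations Tek was higher in the antagomir mouse in 4 of 4 and Tie1 lower in 4 of 4. Flt1, Kdr and Pdgfb were higher in 2 of 4 and Nrp1 in 1 of 4. How many of all genes keep 1 sign in 4 of 4 was not computed, so these signs are a description only. Fitted with these combinations as a block, the log2 difference was 1.38 ± 0.65 for Tek and -0.72 ± 0.60 for Tie1 (SE, edgeR, adjusted p = 1.00 for both). Nrp1, at 401, 659.5, 415 and 447 CPM in antagomir mice and 638, 1368, 399.6 and 697 CPM in scrambled mice, differed by -0.68 (interval -1.82 to 0.46). In Pdgfb, 1 mouse of each treatment had no count in the class, and the interval ran from -4.01 to 4.12.

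Within mural-like wells Pdgfrb was at 3741, 1776, 2554 and 1714 CPM in antagomir mice and 3070, 2387, 3966 and 1671 CPM in scrambled mice. The groups overlapped over nearly their whole range, and the difference was -0.21 ± 0.40 (interval -1.07 to 0.65). Angpt1 and Angpt2 were in too few mural-like wells for a narrow interval: Angpt2 was at 0, 124, 411 and 90.4 CPM in antagomir mice and 4.69, 0, 113 and 0 CPM in scrambled mice, and its interval ran from -2.63 to 7.44.

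In RGL or astrocyte-like wells Pdgfrb was at 13.9, 92.4, 34.6 and 33.5 CPM in antagomir mice and 50.8, 109, 146.9 and 94.2 CPM in scrambled mice. A single antagomir mouse, mouse 4, lay within the scrambled range. The log2 difference was -1.23 ± 0.61 (interval -2.58 to 0.12, edgeR, unadjusted p = 0.0695, adjusted p = 1.00). Within the combinations of sort day and pool it was lower in the antagomir mouse in 4 of 4, and with these as a block the difference was -1.48 ± 0.52 (edgeR, adjusted p = 1.00). Vegfa and Angpt1 were lower there in 2 of 4 and Nrp1 in 1 of 4, and the share of all genes with 1 sign in 4 of 4 was not computed. Vegfa there was at 20.8, 2.97, 9.21 and 20.7 CPM in antagomir mice and 9.50, 23.1, 4.04 and 33.3 CPM in scrambled mice, with a difference of -0.43 (interval -2.98 to 2.11). Angpt1 was at 33.2, 17.8, 30.7 and 11.99 CPM in antagomir mice and 4.31, 35.3, 7.37 and 86.4 CPM in scrambled mice, with a difference of -0.59 (interval -2.78 to 1.61). Most counts behind the value of 86.4 CPM came from 1 well. Kdr in oligodendrocyte-like wells was at 33.6, 0, 29.6 and 8.60 CPM in antagomir mice and 17.2, 57.6, 21.4 and 15.5 CPM in scrambled mice, with a difference of -0.61 (interval -3.33 to 2.10). The intervals for these glial levels allow changes of more than 1 on the log2 scale in either direction, except for a rise of Pdgfrb.

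**Figure D4:**
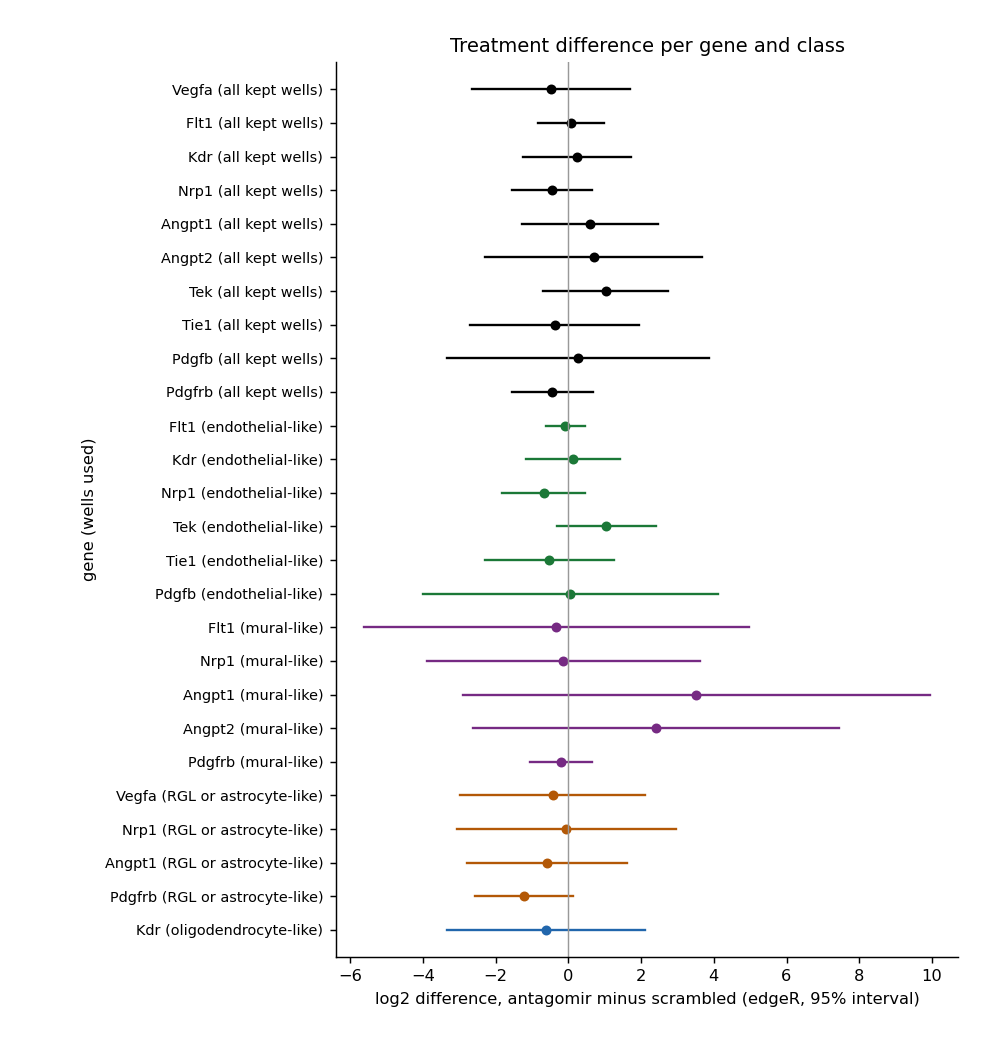
Log2 difference, antagomir minus scrambled, with its 95% interval from edgeR, for each gene in all kept wells and in each class where at least 10% of wells had a count of it. Every interval covers 0; the narrowest are those of Flt1 in endothelial-like wells and Pdgfrb in mural-like wells.

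None of the pathway lists had a called gene after the antagomir in all kept wells or in any of the 4 classes. Over all kept wells, 9 of 9 tested hypoxia-inducible genes had a negative difference, with a median of -0.34 beside 0.00 over all genes; the genes of the list share the same 8 mice and none passed. Within classes the signs were mixed, with 3 positive and 5 negative differences in endothelial-like, 2 and 2 in mural-like, 2 and 4 in RGL or astrocyte-like and 2 and 5 in oligodendrocyte-like wells (medians -0.33, -0.06, -0.34 and -0.08 in that order). List genes with an unadjusted p under 0.05 are named here after their values were seen. Over all kept wells Apln averaged 35.6 ± 5.90 CPM in antagomir mice and 72.8 ± 40.0 CPM in scrambled mice (SD, n = 4 each), with overlap and a log2 difference of -1.07 ± 0.39. Angptl2, an angiopoietin-like protein, was positive in 28 of 82 mural-like wells. Over all kept wells it averaged 16.7 ± 12.2 CPM in antagomir mice and 43.7 ± 7.77 CPM in scrambled mice (SD, n = 4 each). Its mice did not overlap there, as in 1.29% of all genes with a count, and the difference was -1.43 ± 0.63. Pfkfb3, a regulator of glycolysis, differed by -1.30 ± 0.57 in RGL or astrocyte-like wells, and its mice did not overlap either, as in 1.27% of genes there. Apln also had a difference of -0.83 in oligodendrocyte-like wells, and all of these had an adjusted p of 1.00.

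Whether the response differed between endothelial-like and mural-like wells was tested with an interaction term. It called 0% of 9543 genes and none of the 9 members tested, with 1.92% of genes and 2 members at an unadjusted p under 0.05. These were Pdgfrb and Angpt2. Endothelial-like wells positive for Pdgfrb came from scrambled mice 1 and 5, and those positive for Angpt2 from scrambled mice 1 and 3, so that 2 and 3 wells carry these terms. The 2 Pdgfrb wells are those given above with a median of 19097 CPM of summed mural markers. Of the pathway genes, Acvrl1 and Slc2a1 also had an unadjusted p under 0.05. Flt1 and Nrp1, read in over 10% of wells of both classes, had terms of 1.94 ± 2.01 and 1.99 ± 2.51 (SE).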

How the data were processed

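The authors' deposited table gives raw counts per gene and well, not normalized; per the submitters' processing notes it was made with STAR 2.5.2 and featureCounts 1.5.1 on mm10; the gene annotation and the strand setting are not stated. Group, sort day (2) and sequencing pool (2) were read from the well annotation; which of the 2 samples listed per treatment holds which mice is not known, and each mouse counted as a replicate. Wells with 500 to 6000 genes were kept (4118 to 1640971 counts per well). Wells were clustered with scanpy 1.11.5 (2000 variable genes, 20 components, Leiden resolution 1), without the members and pathway genes, and no doublet caller was run. Counts were summed per mouse, or per class and mouse where at least 3 wells were present, and tested with edgeR 4.0.16 (quasi-likelihood, TMM scaling, filterByExpr, Benjamini-Hochberg adjustment over all genes, threshold 0.05), with the mouse as a block between classes; DESeq2 1.42.0 and limma 3.58.1 were alternatives. The tests were tested on simulated data. All 10 members are named; of the pathway genes, up to 6 per contrast past the threshold, in order of p, besides any stated exception; for likeness, up to 2 of the highest correlations, with those of Angpt1 not reported here. The members and lists were chosen with earlier results of these data known. The main treatment test was set without covariates and did not treat mice sharing a day and a pool as pairs. Correlations between the deviations of such mice ran from -0.0024 to 0.147. A fit with day and pool as a block was an alternative. Nothing states that mice were processed independently, so p-values measure the spread between these mice.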

Additional observations from a re-analysis of the deposited data

Results flagged for a closer look

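In 52 groups of 4 mice checked, 4 had a mouse far from the other 3. The cutoff flags about 1 in 20 groups of normally spread values. CPM of sparse genes are not spread so, and a gene read in 1 mouse of a group is always flagged. The number of flags therefore cannot be set against that rate. All 4 were scrambled mice. Angpt1 over all kept wells was at 24.5 CPM in scrambled mouse 7, and at no more than 4.98 CPM in the other 3 scrambled mice. Most Angpt1 counts of mouse 7 came from 1 RGL or astrocyte-like well. Angpt1 in mural-like wells was at 19.6 CPM in scrambled mouse 1 and had no count in the other 3. Angpt2 in mural-like wells was at 113 CPM in scrambled mouse 5, with 4.69 CPM the next highest. Kdr in oligodendrocyte-like wells was at 57.6 CPM in scrambled mouse 3, with 21.4 CPM the next highest.

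The wells with more than 6000 genes, which no comparison used, held endothelial and mural genes together. Of these 16 wells, 13 had both Flt1 and Pdgfrb at 10 counts or more (81.25%), against 9 of 716 kept wells (1.26%). They were 2 per mouse in all 8 mice (8 antagomir, 8 scrambled), lay in the same 4 plate columns and 2 plate rows, and had 9848 to 11673 genes with 582608 to 1492196 counts. In them 14 had 3 or more endothelial and 3 or more mural markers, against 4 kept wells. What was sorted into these wells is not stated in the sources used here.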

How the results depend on the processing

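Treatment calls for the 10 genes were 0 by edgeR under every scaling, filter, left-out mouse, batch fit and clustering tried, and by DESeq2, while DESeq2 called more genes between classes: 3598 against 1365 by edgeR for endothelial-like minus mural-like wells, 5545 against 3520 for endothelial-like minus RGL or astrocyte-like, 5502 against 3577 for endothelial-like minus oligodendrocyte-like, 4524 against 2805 for mural-like minus RGL or astrocyte-like and 4742 against 3101 for mural-like minus oligodendrocyte-like wells. Without the filter edgeR called 3 genes by treatment in endothelial-like wells, 4 in mural-like wells and 4 for the difference in response between these classes, none of them a member, against 0 with it. For RGL or astrocyte-like minus oligodendrocyte-like wells DESeq2 called 7 of the 9 genes, edgeR 4. The further DESeq2 calls were Angpt1, Tek and Tie1. No well of either class was positive for Tek or Tie1. Tek had no count at all in oligodendrocyte-like wells, and Tie1 none in RGL or astrocyte-like wells, so these calls set classes near 0 against each other. Without the filter on low counts the Vegfa call in that contrast was lost (adjusted p = 0.261). RLE scaling moved the median of all genes from -1.69 to -1.49 for endothelial-like minus oligodendrocyte-like wells and from -1.28 to -1.04 for mural-like minus oligodendrocyte-like wells. The cause of these changes was not tested.

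No treatment difference below was called, and these changed sign; the cause was not tested. With the replicate block of sort day and pool, the log2 difference over all kept wells was 0.0443 for Vegfa and -0.10 for Kdr; within classes it was -0.15 for Kdr in endothelial-like, 0.85 for Nrp1 and 0.32 for Angpt1 in RGL or astrocyte-like wells. With day and pool as covariates it was 0.0017 for Vegfa and -0.13 for Kdr. Within pool L5 Vegfa was at 1.33, and within pool L6 Kdr was at -1.27 and Pdgfb at -0.73. Within sort day 1 Flt1 was at -0.35, Kdr at -0.42, Angpt2 at -0.78 and Pdgfb at -0.28, and within sort day 2 Nrp1 was at 0.68 and Angpt1 at -0.56. With limma on mean log2(CPM + 1) over wells, Flt1 was at -0.0921, Kdr at -0.0431 and Pdgfb at -0.0287. The block changed no call. With it Tek over all wells was at 1.55 ± 0.48 and Pdgfrb at -0.50 ± 0.17 (SE). In that fit (edgeR) 2 members had an unadjusted p under 0.05 over all kept wells, and 1 had it in RGL or astrocyte-like wells, against 0 in both main fits.

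Leaving out each mouse in turn, the differences over all kept wells that changed sign ran from -0.83 to 0.24 for Vegfa, -0.18 to 0.49 for Flt1, -0.21 to 0.60 for Kdr, -1.09 to 0.22 for Tie1, -0.51 to 1.25 for Angpt2 and -0.49 to 0.68 for Pdgfb. Within classes they ran from -0.29 to 0.44 for Kdr and -0.37 to 0.70 for Pdgfb in endothelial-like wells, -0.9997 to 0.10 for Flt1, -1.95 to 0.30 for Nrp1 and -0.48 to 0.0167 for Pdgfrb in mural-like wells, and -0.76 to 0.13 for Vegfa, -0.65 to 0.66 for Nrp1 and -0.93 to 0.57 for Angpt1 in RGL or astrocyte-like wells. The term for Nrp1 between endothelial-like and mural-like wells ran from -0.13 to 4.36. Vegfa was positive in 41 of 716 wells; how depth bears on such low genes was not tested.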
